A study of Mus musculus with 12 samples.

Results

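The CXCR2 ligand chemokines Cxcl1, Cxcl2, Cxcl3 and Cxcl5 and the gene of their receptor, Cxcr2, were followed in peritoneal exudate cells of mice, a mixture of leukocytes and lining cells washed out of the peritoneum. The genes were taken by name: every array probe that is not a control and carries 1 of these gene names was used. The array annotation lists Cxcl3 as Gm1960 and Cxcr2 as Il8rb. This gave 6 probes for 5 genes, out of 41174 probes for 27670 named genes or transcripts on the array. All mice were 8-week-old females of the strain 129S2/SvPas*BALB/c. They were wild type or Ifnar2 -/-, that is, lacking a subunit of the type I interferon receptor, and received either interferon beta (IFN-β, 10000 IU/ml, no volume stated) or phosphate-buffered saline (PBS) into the peritoneal cavity. RNA was taken 3 h later and measured on 1-colour Agilent arrays, with 3 arrays for each of the 4 groups: wild type with PBS, wild type with IFN-β, Ifnar2 -/- with PBS and Ifnar2 -/- with IFN-β. The design text states that different mice were used for each sample. The series title places the study around interferon beta signalling through the other receptor subunit, Ifnar1, so the question here is what the injection did to these genes with and without Ifnar2. No group received the interferon preparation without active interferon.

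The ligands are small secreted proteins of the CXC chemokine family that carry a glutamate-leucine-arginine motif and bind the G-protein-coupled receptor CXCR2. CXCR2 sits mainly on neutrophils, and the gradient of its ligands draws these cells from the blood into a tissue. In the peritoneal cavity macrophages, mast cells and the mesothelial lining are known sources of CXCL1 and CXCL2, and transcription of the ligand genes is known to be driven by NF-κB after toll-like receptor, interleukin 1 or tumour necrosis factor signals.

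Expression is given as the log2 of the processed signal over the array's 75th percentile, so 0 is the level of a probe at that percentile. Each value belongs to a single probe, and levels of different probes are not compared with each other. A probe counts as measured on an array where the scanner software marks it well above background. Differences were tested with limma across 18273 genes, and a gene is called when its Benjamini-Hochberg adjusted p lies under 0.05. The arrays lay on 3 slides, each scanned as a run of its own. Slide 1 held the wild-type PBS arrays and wild-type IFN-β array 1, slide 2 held wild-type IFN-β arrays 2 and 3 and array 1 of both Ifnar2 -/- groups, and slide 3 held the other Ifnar2 -/- arrays. On slide 3, 59.4% to 62.5% of spots were well above background, against 65.2% to 71.6% on slides 1 and 2. Of the Ifnar2 probes, A_52_P190405 stood at 4.64 ± 0.23 (SD, n = 3) in wild-type and 2.79 ± 0.14 in Ifnar2 -/- cells after PBS, whereas A_51_P338924 stood at 1.64 ± 0.07 and 2.59 ± 0.10. Which of these probes lies in the deleted part was not given in the sources used here. Markers of the large peritoneal macrophage were abundant in all groups (summed signal 667 to 883 times the 75th percentile), those of B cells lay at 169.5 to 278 and those of mast cells at 175 to 369.

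Cxcl1 encodes KC, the chief neutrophil-attracting chemokine of the mouse. Its probe A_51_P363187 (NM_008176, chr5:90882059-90882118 in the mm7 build named in the file header) was well above background on 12 of 12 arrays. The wild-type PBS arrays read 0.42, 0.33 and 0.63, and the wild-type IFN-β arrays 0.94, 1.07 and 0.54. The Ifnar2 -/- PBS arrays read 0.04, 0.16 and 0.10, and the Ifnar2 -/- IFN-β arrays 2.86, 3.46 and 2.45. The 3 Ifnar2 -/- arrays after IFN-β were thus far above all others, while the wild-type groups overlapped. In deposited signal units the Ifnar2 -/- mean was 7310 ± 2798 (SD, n = 3) after IFN-β and 919 ± 117 after PBS. In Ifnar2 -/- cells Cxcl1 rose by 2.82 (SE 0.23, 7.07-fold, 95% interval 4.96 to 10.1, adjusted p = 0.000467), which ranked 6 among all genes by p. The rise was 2.82 within slide 2 and 2.82 within slide 3. In wild-type cells the difference was 0.39 (95% interval -0.12 to 0.90, adjusted p = 0.216).

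Cxcl2 encodes MIP-2, which acts through the same receptor and whose gene follows that of Cxcl1 along the chromosome. Its probe A_51_P217463 (NM_009140, chr5:90894748-90894807, mm7) was also well above background on 12 of 12 arrays. The wild-type arrays read -0.21, -0.25 and -0.29 after PBS and 0.66, 0.58 and -0.01 after IFN-β. The Ifnar2 -/- arrays read -0.65, -0.47 and -0.47 after PBS and 2.41, 2.54 and 1.69 after IFN-β. In both genotypes every IFN-β array lay above every PBS array, with the wider gap in Ifnar2 -/- cells. Cxcl2 rose by 2.74 in Ifnar2 -/- cells (SE 0.23, 6.70-fold, 95% interval 4.72 to 9.52, adjusted p = 0.000467), with 3.07 within slide 2 and 2.58 within slide 3. In wild-type cells it rose by 0.66 (SE 0.23, 1.58-fold, 95% interval 1.11 to 2.24, adjusted p = 0.0424). The wild-type call was lost without IFN-β array 1 (adjusted p = 0.148) or 2 (0.124) and without PBS array 1 (0.0833), 2 (0.0898) or 3 (0.101). It was also lost with the slide as a fixed block (0.0849), with no filter on dim probes (0.0817) and with no scaling between arrays (0.156).

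Cxcl3 encodes a further ligand with the same motif, and it was measured almost only in Ifnar2 -/- cells after IFN-β. Its probe A_52_P232813 (NM_203320, chr5:90758177-90758236, mm7) was well above background on 4 of 12 arrays: wild-type PBS array 2 and the 3 Ifnar2 -/- IFN-β arrays. Those 3 arrays read -2.63, -1.94 and -0.81, or 137.4, 248.3 and 552.4 in signal units. The Ifnar2 -/- PBS arrays read -7.09, -7.58 and -7.30, the wild-type IFN-β arrays -6.94, -6.70 and -7.25, and the wild-type PBS arrays -7.49, -4.35 and -8.85. Wild-type PBS array 2 was therefore the only array outside the Ifnar2 -/- IFN-β group with a measured level, and it lay below that group. A group that is not well above background has only an upper limit. The fold is therefore given against the lowest signal marked well above background on each array, or the probe's own signal where higher. That level is not a strict limit. On Ifnar2 -/- PBS array 2 it was -5.46, yet a probe of another gene was not marked at -5.08. Each fold given as at least is therefore approximate. In Ifnar2 -/- cells Cxcl3 was at least 15.1-fold higher after IFN-β than after PBS (adjusted p = 0.0204), with measured means of -1.79 ± 0.92 and -7.33 ± 0.25 (SD, n = 3). The call was lost without any 1 PBS array of these mice (adjusted p = 0.0698, 0.0926 and 0.0728 without array 1, 2 and 3) and without IFN-β array 2 (0.0509) or 3 (0.0658). It was also lost with no filter on dim probes (0.0522) and with the slide as a fixed block (0.0551). Normexp background correction kept the call (0.00393), but its difference of 2.33 lay below the log2 bound of 3.92 behind the 15.1-fold. In wild-type cells the fitted difference was -0.06 (adjusted p = 0.968), and it read 1.21 without PBS array 2 and was still not called.

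Cxcl5, the gene of LIX, a ligand known from epithelial cells and platelets, was not well above background on any of the 12 arrays. Its probe A_52_P295432 (NM_009141, chr5:90732453-90732512, mm7) read between 1.58 and 9.82 in signal units. It was left out of the test, so no difference is given for it.

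**Figure D1:**
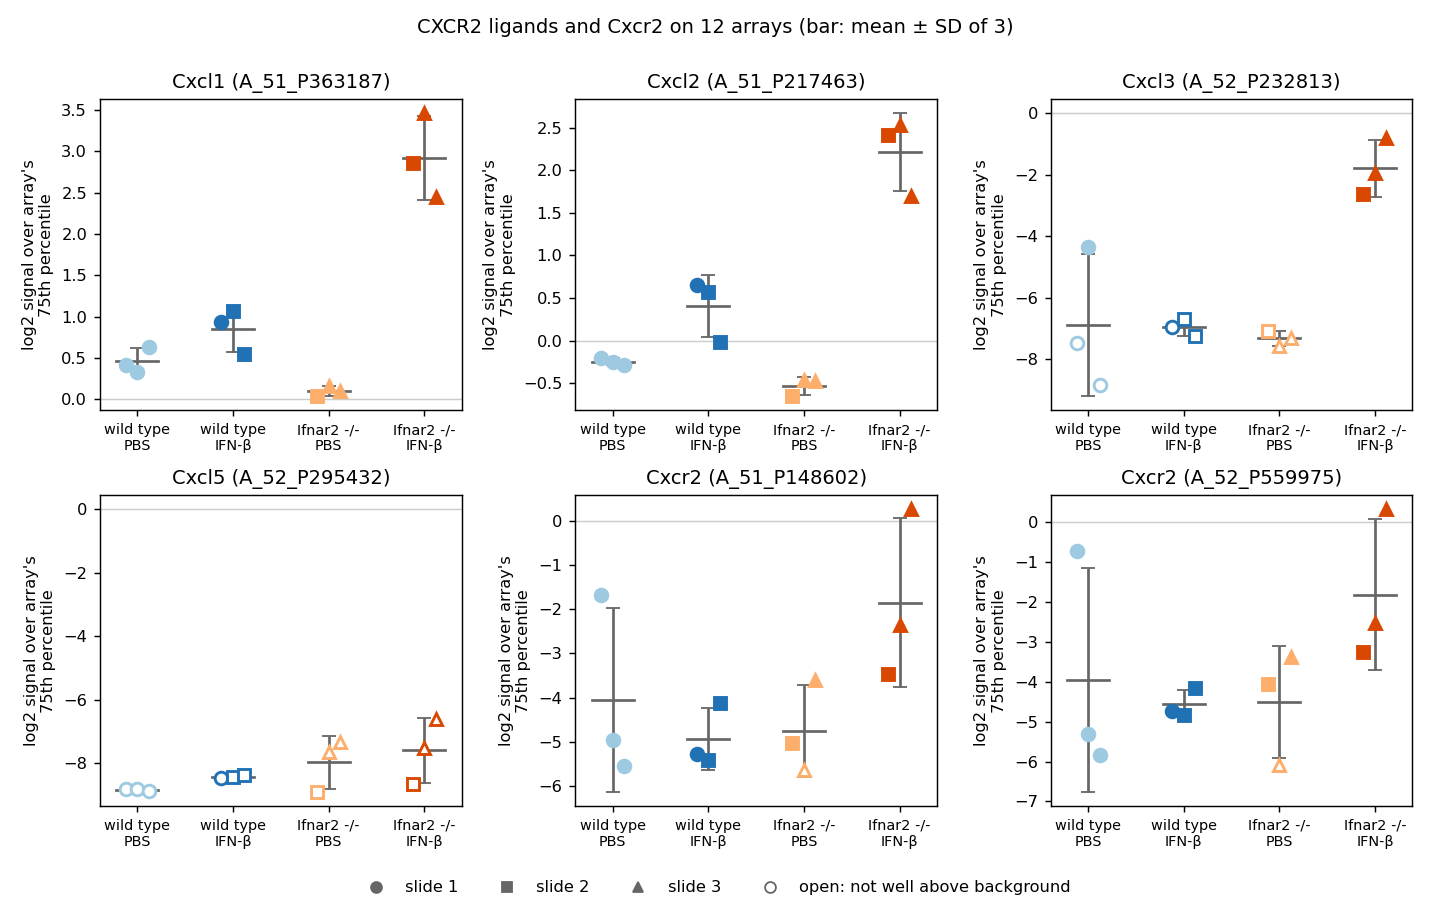
Log2 signal over the array's 75th percentile for the 6 probes, by group, with 1 point per array, the slide as the marker shape, open markers where the probe was not well above background, and bars for the mean ± SD of 3 arrays; each panel has its own vertical scale. The Ifnar2 -/- IFN-β arrays stand above all others for Cxcl1 (2.45 to 3.46), Cxcl2 (1.69 to 2.54) and Cxcl3 (-2.63 to -0.81), while Cxcr2 is high on wild-type PBS array 1 as well.

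Of the 4 genes that could be tested, 3 were thus called higher after IFN-β in Ifnar2 -/- cells and 1 (Cxcr2) was not called. Over all genes 1.13% were called in that comparison, 0.925% as higher. Cxcl3 entered the test only through the group in which it was high, so this count is a description. In wild-type cells 1 of the 4 was called higher (Cxcl2), where 39.4% of all genes were called and 17.6% as higher. The response of Ifnar2 -/- cells exceeded that of wild-type cells by 2.43 for Cxcl1 (SE 0.33, adjusted p = 0.000553), by 2.09 for Cxcl2 (SE 0.32, adjusted p = 0.00137) and by 5.60 for Cxcl3 (SE 1.28, adjusted p = 0.0126). For this difference of responses 3 of 4 were called, against 17.8% of all genes, 8.68% as higher and 9.09% as lower; this count too is a description, for the same reason. The Cxcl3 value includes 8 of 12 arrays on which its probe was not well above background, and its call was lost with the slide as a fixed block (adjusted p = 0.0777) and without Ifnar2 -/- IFN-β arrays 2 and 3 (0.0829), an omission chosen after seeing the data. With normexp background correction it was 2.37 and was called (adjusted p = 0.00283).

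After IFN-β, Ifnar2 -/- cells exceeded wild-type cells 4.21-fold in Cxcl1 (95% interval 2.95 to 6, adjusted p = 5.78e-05), 3.50-fold in Cxcl2 (2.46 to 4.97, adjusted p = 0.00014) and at least 20.2-fold in Cxcl3 (adjusted p = 0.0012). In each case all 3 Ifnar2 -/- arrays lay above all 3 wild-type arrays, 3 of 4 tested genes were called higher, and 38.5% of all genes were called, 21.3% as higher and 17.2% as lower. Cxcl3 entered this comparison only through the group in which it was high, so the count is a description, and with normexp its difference was 2.04 on the log2 scale, below the bound above (adjusted p = 0.000285). On slide 2, the only slide with both groups, the log2 differences were 2.06, 2.13 and 4.35. After PBS none of the 4 was called, with 4.88% of all genes called by limma, 2.85% as higher and 2.04% as lower; at an unadjusted p under 0.05 the count was 0 of 4 members and 3699 of all genes. Cxcl1 read lower in every Ifnar2 -/- PBS array than in every wild-type PBS array by 0.36 in the mean (95% interval of the difference -0.87 to 0.15, adjusted p = 0.408), and Cxcl2 by 0.28 (-0.79 to 0.22, adjusted p = 0.521). No slide held both PBS groups, so there is no within-slide value. A fixed slide block, which links these groups only through the IFN-β arrays, gave -0.29 for Cxcl1 and 0.13 for Cxcl2, and neither was called. In order of level, the highest group for both genes was Ifnar2 -/- with IFN-β, then wild type with IFN-β, wild type with PBS and Ifnar2 -/- with PBS. For Cxcl1 only the first step in that order was called, and for Cxcl2 the first and the second.

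Marker levels of resident cells also differed between the genotypes after IFN-β. Over all genes 38.5% were called in that comparison, 21.3% as higher and 17.2% as lower in Ifnar2 -/- cells. All 9 mast cell markers were called higher in Ifnar2 -/- cells (summed signal 291 to 332 against 175 to 200.5). Of 7 monocyte markers 5 were called lower and 1 higher (101 to 127 against 247 to 287). After PBS the monocyte sums were 109.5 to 133.2 in Ifnar2 -/- and 83.5 to 117.3 in wild-type cells. In the wild-type response 5 of 7 monocyte markers were called higher and 0 lower, against 17.6% of all genes called higher. Of 11 large peritoneal macrophage markers 3 were called higher and 3 lower in Ifnar2 -/- than in wild-type cells after IFN-β. Both counts are near the shares of all genes in that comparison. After PBS the mast cell sums were 306 to 369 in Ifnar2 -/- and 203 to 284 in wild-type cells. The part of cell composition in these results was not tested, and in bulk RNA fewer cells of a type and less RNA per cell cannot be told apart.

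**Figure D2:**
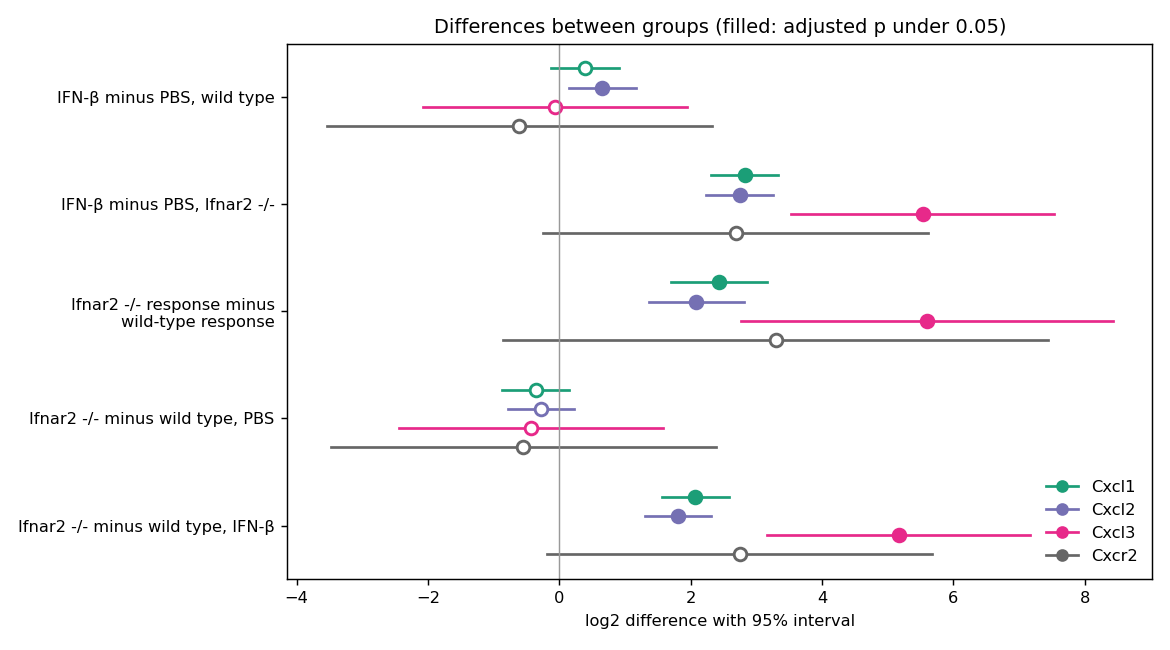
Log2 difference with its 95% interval for the 4 tested genes in each of 5 comparisons; filled points have an adjusted p under 0.05. Cxcl1 and Cxcl2 lie close together in every comparison (2.82 and 2.74 in Ifnar2 -/- cells), and the Cxcr2 intervals are wide and include 0 in all 5; Cxcl3 points are fitted values, partly from levels below background.

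Because Cxcl1, Cxcl2 and Cxcl3 were called together, the 120 bases before the RefSeq transcript start of each are shown, with those of Cxcr2, which was not called. The sequences are from RefSeq in the GRCm38.p6 build, on the plus strand, and 4 of the 5 genes had an entry. Capitals mark exact matches to GGGAATTTC, a form of the NF-κB (kappaB) motif, and to ATAAAAGG, a form of the TATA motif; both were chosen after these sequences had been seen. Cxcl1 is chr5:90891125-90891244, Cxcl2 is chr5:90903779-90903898, Cxcl3 is chr5:90785981-90786100 and Cxcr2 is chr1:74153874-74153993.
Cxcl1: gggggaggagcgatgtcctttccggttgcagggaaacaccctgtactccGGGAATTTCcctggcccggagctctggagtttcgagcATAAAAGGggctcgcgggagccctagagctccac
Cxcl2: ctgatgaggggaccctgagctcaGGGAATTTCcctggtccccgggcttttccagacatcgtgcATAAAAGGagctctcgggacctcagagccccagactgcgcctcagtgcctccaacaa
Cxcl3: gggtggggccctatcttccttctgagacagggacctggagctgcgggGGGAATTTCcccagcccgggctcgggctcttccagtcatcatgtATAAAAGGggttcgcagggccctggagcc
Cxcr2: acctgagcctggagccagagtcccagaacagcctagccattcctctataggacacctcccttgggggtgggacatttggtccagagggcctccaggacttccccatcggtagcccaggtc

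Each of the 3 ligand promoters held both motifs, in the same order. Searched on both strands, GGGAATTTC was present in 85 of 32851 RefSeq windows of 300 bases (250 before and 50 after a start), or 0.259%, and ATAAAAGG in 1.76%. The kappaB match began 71 bases before the start in Cxcl1, 97 in Cxcl2 and 73 in Cxcl3, and the TATA match 34, 57 and 29 bases before it. A wider kappaB form, GGGNNTTTC, which includes every GGGAATTTC match, was found in 4.36% of windows. Cxcl1 held an additional match to it on the minus strand, 88 to 80 bases before the start, and Cxcl2 held an additional match on the plus strand, 78 to 70 bases before it. The Cxcr2 window held a match to the wider form alone, on the minus strand, 157 to 149 bases before the start and so outside the bases shown. None of the 4 windows held GAAANNGAA, a form of the interferon-stimulated response element found in 8.56% of windows. Over the 120 bases, 84 were identical in a global alignment of Cxcl1 with Cxcl3 and 70 in that of Cxcl1 with Cxcl2; Cxcl1 and Cxcr2 also shared 70. A match is a run of letters and does not show that a factor binds there.

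**Figure D3:**
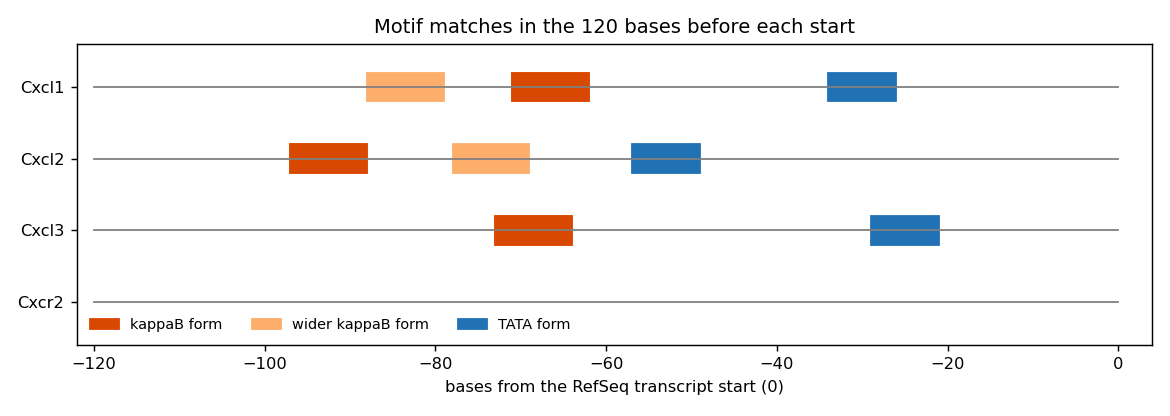
Positions of motif matches in the 120 bases before the RefSeq start of each gene, in bases from the start; orange marks GGGAATTTC, light orange further matches to GGGNNTTTC, and blue ATAAAAGG. The kappaB form lies farther from the start than the TATA form in Cxcl1 (71 and 34 bases), Cxcl2 (97 and 57) and Cxcl3 (73 and 29), and the Cxcr2 line is empty.

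The array probes of the members were 60 bases long, and no 2 of them shared a run of more than 7 bases. Cxcl1 and Cxcl2 nonetheless had the most alike profiles. With each gene's values centred on their mean over the 12 arrays, the root-mean-square difference between both was 0.18, and Cxcl2 was ranked 1 among 18251 genes by likeness to Cxcl1. The 3 genes outside the set most like Cxcl1 were Phldb1 (0.50), Treml4 (0.52) and Mmp14 (0.54), and those most like Cxcl2 were Mmp14 (0.48), Clec4e (0.49) and Exoc3l4 (0.49). Mmp14 encodes a membrane-bound metalloproteinase, and Clec4e encodes Mincle, a C-type lectin receptor of macrophages. Ccl22, Prok2 and Gpr84 were most like Cxcl3, at 1.31 each, a distance that includes the scatter of values below background. These likenesses are descriptions over 12 arrays that share the same groups.

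Cxcr2 had 2 probes, both annotated to NM_009909: A_52_P559975 (chr1:74402562-74402621, mm7), the brighter, which stands for the gene, and A_51_P148602 (chr1:74401999-74402058). Both were well above background on 11 of 12 arrays, the exception being Ifnar2 -/- PBS array 2. A_52_P559975 read -0.73, -5.30 and -5.84 in wild-type PBS cells and -4.72, -4.83 and -4.15 in wild-type IFN-β cells. In Ifnar2 -/- cells it read -4.06, -6.08 and -3.38 after PBS and -3.25, -2.53 and 0.33 after IFN-β. Wild-type PBS array 1 and Ifnar2 -/- IFN-β array 3 stood apart from the others of their groups. All 3 Ifnar2 -/- IFN-β arrays lay above all 3 PBS arrays of that genotype, but the difference of 2.68 was not called (95% interval -0.25 to 5.62, adjusted p = 0.316). It was 0.80 within slide 2 and 3.63 within slide 3, and 1.61 without IFN-β array 3 (adjusted p = 0.698). In wild-type cells the difference was -0.61 (95% interval -3.54 to 2.32, adjusted p = 0.765), and it read 1.00 without PBS array 1 and was not called. Ifnar2 -/- cells read higher than wild-type cells after IFN-β by 2.75 (95% interval -0.19 to 5.68, adjusted p = 0.127). The second probe, A_51_P148602, gave 3.095 there and passed the threshold when every probe was tested (adjusted p = 0.0477), so the 2 probes disagree on that call; its Ifnar2 -/- response of 2.91 was not called (adjusted p = 0.209). The order of the groups by mean level was Ifnar2 -/- with IFN-β, wild type with PBS, Ifnar2 -/- with PBS and wild type with IFN-β, and no neighbours in it differed at the threshold (adjusted p from 0.283 to 0.976).

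Cxcr2 is a neutrophil gene, and its highest arrays were those with the highest summed signal of defining neutrophil markers. The defining markers S100a8, S100a9, Retnlg and Mmp8 were all tested (Ly6g had no probe), and all were well above background on every array except Mmp8 on Ifnar2 -/- PBS array 2. Their summed signal, in multiples of the 75th percentile, was 98.5, 7.15 and 3.34 in wild-type PBS arrays and 10.1, 12.3 and 16.8 in wild-type IFN-β arrays. It was 9.28, 6.06 and 10.3 in Ifnar2 -/- PBS arrays and 14.4, 73.7 and 189.6 in Ifnar2 -/- IFN-β arrays. The marker sum was therefore high on the same arrays as Cxcr2: Ifnar2 -/- IFN-β array 3, wild-type PBS array 1 and Ifnar2 -/- IFN-β array 2. S100a9 made up most of the sum on these arrays, and S100a8 was also highest on them. Retnlg, however, was highest on wild-type IFN-β array 3 (3.54 on the log2 scale), where Cxcr2 read -4.15. Mmp8 on Ifnar2 -/- IFN-β array 2 (-2.35) lay below all wild-type IFN-β arrays (-0.47, -1.56 and -0.60). Of the whole neutrophil list, 18 of 20 genes were tested and 0 were called in the Ifnar2 -/- response (limma; 7 at an unadjusted p under 0.05), with a median of 1.76 against -0.05 over all genes. In that response S100a9, a calcium-binding protein abundant in neutrophils, differed by 3.52 (adjusted p = 0.333) and S100a8 by 2.03 (adjusted p = 0.244). Outside the set the genes most like Cxcr2 over the 12 arrays were Stfa2 (0.62), Asprv1 (0.65) and Chil1 (0.71).

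The levels of Cxcl1, Cxcl2 and Cxcl3 were also set beside the neutrophil marker sum of each array. Wild-type PBS array 1, with a marker sum of 98.5, read 0.42 for Cxcl1 and -0.21 for Cxcl2, close to the other wild-type PBS arrays, and was not above background for Cxcl3. Ifnar2 -/- IFN-β array 1 had a marker sum of 14.4, against 6.06 to 10.3 on the PBS arrays of that genotype. That IFN-β array read 2.86 for Cxcl1, 2.41 for Cxcl2 and -2.63 for Cxcl3. Within the Ifnar2 -/- IFN-β group, array 3 had the highest marker sum and the lowest Cxcl1 and Cxcl2, while Cxcl3 followed the order of the sums (-2.63, -1.94 and -0.81 at 14.4, 73.7 and 189.6). Without arrays 2 and 3 of that group the Cxcl3 response was 4.70 and was not called (adjusted p = 0.286). With wild-type PBS array 1 and Ifnar2 -/- IFN-β array 3 both left out, a choice made after seeing the data, 2 of the 4 genes were called in the Ifnar2 -/- response. These were Cxcl1 and Cxcl2, and the Cxcl3 difference was 5.04 (adjusted p = 0.0969). The part of neutrophils in the levels of Cxcl1, Cxcl2, Cxcl3 and Cxcr2 was not tested.

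**Figure D4:**
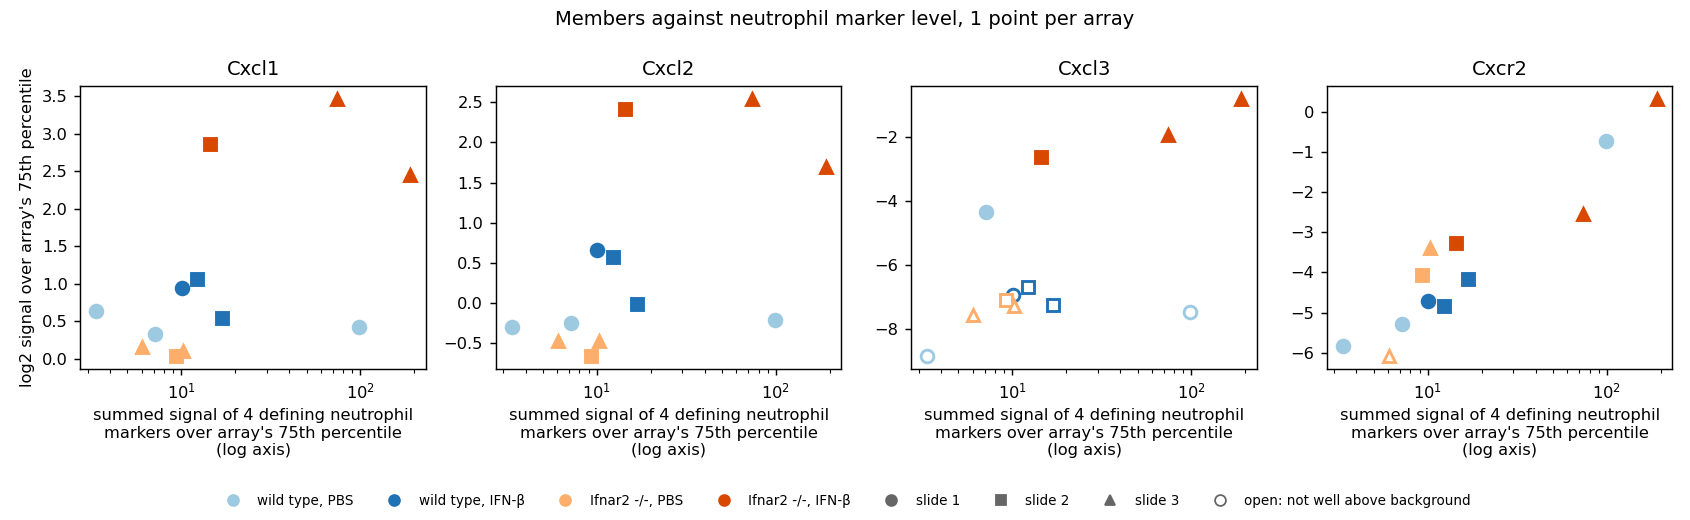
Log2 signal of each gene over the array's 75th percentile against the summed signal of 4 defining neutrophil markers (log axis), with 1 point per array, colour for group and shape for slide; open points were not well above background. Cxcr2 is highest on the arrays with sums of 189.6 and 98.5, whereas Cxcl1 and Cxcl2 are high on all 3 Ifnar2 -/- IFN-β arrays, over sums from 14.4 to 189.6.

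The other genes of the pathway were described from lists, by counts from the same fit and beside the shares of all genes called above. The neighbouring CXC genes Ppbp, Pf4 and Cxcl15, which lie among the ligands on chromosome 5, included 0 of 3 called by limma after IFN-β in either genotype (at an unadjusted p under 0.05, 1 in Ifnar2 -/- and 0 in wild-type cells). In the Ifnar2 -/- response Ppbp differed by 2.39 (adjusted p = 0.182), Cxcl15 by 0.21 and Pf4 by 0.02. Between genotypes after IFN-β all 3 were called higher in Ifnar2 -/- cells, with Ppbp at least 3.88-fold, Cxcl15 at least 2.38-fold and Pf4 by 0.86. Over all genes 38.5% were called there, 21.3% as higher. Ppbp entered the test only through the Ifnar2 -/- IFN-β group and Cxcl15 only through the Ifnar2 -/- groups, so this count is a description. After PBS Pf4 was likewise called higher in Ifnar2 -/- cells, by 0.74 (adjusted p = 0.0254), and Ppbp read 1.47 and Cxcl15 1.67 higher without being called. Platelet markers, a list that also holds Ppbp and Pf4, summed to 209.6 to 277.6 in Ifnar2 -/- and 126.8 to 146.6 in wild-type arrays after IFN-β. After PBS the sums were 226.9 to 275.4 and 132.7 to 180.9. Pf4 made up nearly all of the sum on every array, so the sum restates the Pf4 level. The part of platelets in these differences was not tested. Of the other genes that flank this cluster, 6 of 12 were tested. None was called in Ifnar2 -/- cells by limma (1 at an unadjusted p under 0.05). In wild-type cells 3 were higher and 1 lower, among them Cox18 (1.52), Btc (at least 3.42-fold higher) and Rassf6 (at least 1.65-fold lower). Over all genes 17.6% were called higher and 21.8% lower in wild-type cells. Btc entered the test only through the wild-type IFN-β group, in which it was high.

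The CXC ligands of the other class, which bind CXCR3 on T and NK cells and are classic interferon-induced genes, ran the opposite way between genotypes. In wild-type cells 3 of 3 rose, Cxcl10 by 13.75, Cxcl9 by 8.75 and Cxcl11 at least 501-fold. Over all genes 17.6% were called higher there. Cxcl11 entered the test only through the wild-type IFN-β group, so for it the rise is a description. In Ifnar2 -/- cells Cxcl10 rose by 3.50 (SE 0.50, adjusted p = 0.0132) and Cxcl9 by 1.98 (SE 0.32, adjusted p = 0.0201), while Cxcl11 was not called. Both Cxcl9 and Cxcl10 were measured on 1 of 3 PBS arrays in each genotype, so their fitted values rest partly on signals below background.

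Among cytokines, receptors and adaptors known to induce the ligands, 19 of 21 genes were tested. In Ifnar2 -/- cells 5 rose and 0 fell (median 0.25), where 0.925% of all genes were called higher and 0.208% lower. In wild-type cells 10 rose and 2 fell (median 0.70), where 17.6% of all genes were called higher and 21.8% lower. Il1b, the gene of interleukin 1 beta, rose by 3.75 in Ifnar2 -/- cells (SE 0.65, adjusted p = 0.026) and its response exceeded the wild-type one by 3.05 (adjusted p = 0.0436). Il1b was also high on wild-type PBS array 1 (0.18, against -2.84 and -1.86 on the other wild-type PBS arrays), which had a high neutrophil marker sum. It read 1.36, 2.46 and 3.11 on Ifnar2 -/- IFN-β arrays 1, 2 and 3, the order of their marker sums, and -1.34, -1.40 and -1.56 on the PBS arrays of that genotype. The part of neutrophils in this result was not tested. Tnf, the gene of tumour necrosis factor, rose in both genotypes, by 2.24 (adjusted p = 0.0104) in Ifnar2 -/- and 2.49 (adjusted p = 0.000114) in wild-type cells. Il1a rose by 1.76 in Ifnar2 -/- cells (adjusted p = 0.0181), and was already higher in them than in wild-type cells after PBS by 3.39 (adjusted p = 8.6e-05). Il1r1, the gene of the signalling receptor for interleukin 1, fell at least 61.1-fold in wild-type cells (adjusted p = 1.18e-05), where no IFN-β array was above background, and was not called in Ifnar2 -/- cells. Myd88, the adaptor of toll-like and interleukin 1 receptors, rose by 2.48 in wild-type cells, more than in Ifnar2 -/- cells by 1.74 (adjusted p = 4.34e-05). Csf3 and Il17a were not tested, with probes above background on 2 and 0 arrays.

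Regulators of transcription and decay of the ligand mRNAs were all tested, 13 genes. Of these 2 rose in Ifnar2 -/- cells, where 0.925% of all genes were called higher. In wild-type cells 7 rose and 1 fell, where 17.6% of all genes were called higher and 21.8% lower. Bcl3, a nuclear partner of NF-κB, rose by 1.73 (adjusted p = 0.00395) in Ifnar2 -/- and 2.16 (adjusted p = 1.74e-05) in wild-type cells, and Tnfaip3, which encodes the NF-κB inhibitor A20, by 1.23 and 1.57 in the same order. Zfp36, the gene of the mRNA decay factor tristetraprolin, rose by 1.44 in wild-type cells, and its Ifnar2 -/- response was smaller by 0.96 (adjusted p = 0.0259). The Ifnar2 -/- response of Nfkbiz, which encodes a nuclear NF-κB cofactor, was smaller by 0.83 (adjusted p = 0.0245). After IFN-β, 2 of the 13 were called higher and 3 lower in Ifnar2 -/- than in wild-type cells. Both counts are near the shares of all genes in that comparison, 21.3% higher and 17.2% lower. Zfp36 was lower by 0.97 (adjusted p = 0.00182) and Nfkbiz by 0.93 (adjusted p = 0.000834), whereas Zfp36l2, of the same family as Zfp36, was higher by 0.95 (adjusted p = 0.0367). The part of these genes in the ligand levels was not tested.

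On the receiving side, 21 of 22 genes of CXCR2 signalling were tested, and 0 were called in Ifnar2 -/- cells by limma, 6 at an unadjusted p under 0.05 (median -0.09). In wild-type cells 3 rose and 10 fell, where 17.6% of all genes were called higher and 21.8% lower. Pik3cg, a G-protein-coupled lipid kinase subunit, fell by 2.03 (adjusted p = 1.38e-05), and Arrb1, an arrestin that uncouples receptors, fell by 1.55. Of 10 other neutrophil chemoattractant receptor genes 9 were tested. C5ar1, the complement C5a receptor, was the only member called in Ifnar2 -/- cells and rose by 0.98 (adjusted p = 0.0165). Over all genes 1.13% were called in that response. In wild-type cells 2 rose and 2 fell, among them Fpr2 (1.69), Cxcr4 (-1.75) and Ackr2 (-1.16). Both counts are near the shares of all genes given for that comparison. The probe of Cxcr1, the sister receptor of Cxcr2, was above background on 0 arrays. Of the neutrophil growth factor and receptor genes 4 of 5 were tested. In each genotype 2 were called higher, and in wild-type cells 1 was called lower. Over all genes 0.925% were called higher in Ifnar2 -/- cells, and 17.6% higher and 21.8% lower in wild-type cells. Csf2rb, the shared receptor beta chain, rose by 0.81 in Ifnar2 -/- (adjusted p = 0.0429) and 0.94 in wild-type cells. Csf2, the gene of GM-CSF, was called too, at least 2.34-fold higher in wild-type cells. It entered the test only through the wild-type IFN-β group, in which it was high. In Ifnar2 -/- cells it was above background on 1 of 3 IFN-β arrays and on 0 of 3 PBS arrays, and the bound was 1.08-fold.

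**Figure D5:**
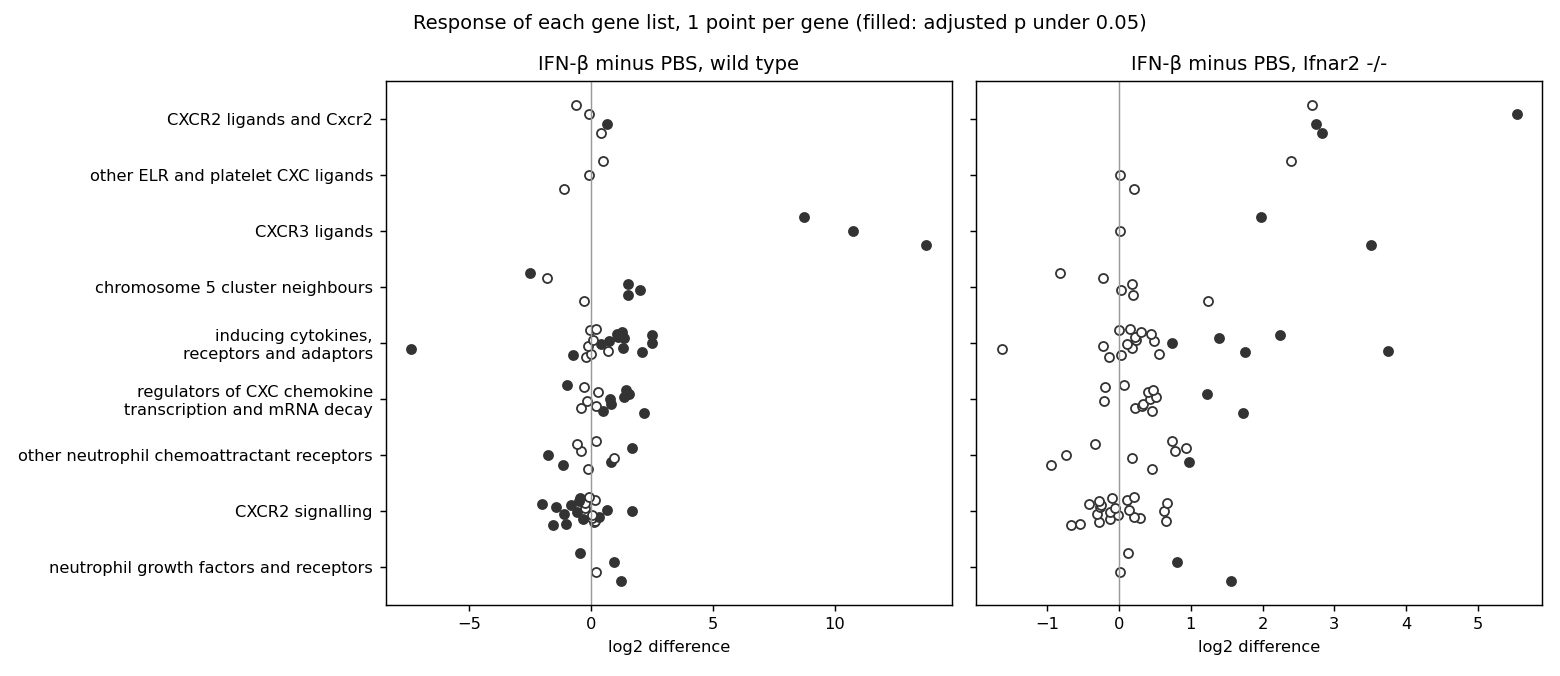
Log2 difference after IFN-β for each tested gene of each list, in wild-type cells on the left and Ifnar2 -/- cells on the right; the horizontal scales differ, and filled points have an adjusted p under 0.05. In Ifnar2 -/- cells the called CXCR2 ligands lie at 2.74 to 5.53, and the CXCR3 ligands reach 13.75 in wild-type and 3.50 in Ifnar2 -/- cells.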

How the data were processed

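RNA was column-purified with DNase digestion and labelled with Cy3, per the labels' protocols. Per the submitters' processing notes, Agilent Feature Extraction 9.5.3.1 made the deposited values, which are background-corrected intensities on a linear scale, not normalized between arrays. Coordinates of probes are those of the file header's build (mm7, NCBI 35). The deposited table of the whole series holds the same intensities (0 of 45018 spots differed beyond rounding).

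From these, spots marked as outliers were left out (84 to 167 per array), spots of a probe were averaged, and log2 of the signal minus the array's 75th percentile was taken. Kept probes had values on at least 6 arrays and were well above background in every array of 1 group or more, and a gene was represented by its kept probe of highest mean signal, which left 18273 genes. Probes were named through RefSeq accessions or symbols (32719 of 41174), otherwise as in the file. One limma fit (3.58.1, R 4.3.3) of 4 group means over 12 arrays gave two-sided moderated tests, Benjamini-Hochberg adjusted over all genes. The script was tested on simulated data. The number of arrays limits the precision.

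Replicate numbers were checked for pairing: the deviations of same-numbered arrays correlated between -0.12 and 0.51, with 5 of 18 pairs over 0.1, so no pairing was used. The genes and lists were chosen with earlier results of these data known. Named genes are the members, up to 3 called genes of largest difference per list and comparison, and the 3 genes most like each member (1 gene this rule would name is not reported here); uncalled genes and Il17a, Csf3 and Cxcr1 were named after their values were seen. Alternatives covered background correction, scaling, filter, probe choice, slide, replicate block, array weights, fewer groups and leaving out arrays.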

Additional observations from a re-analysis of the deposited data

Results flagged for a closer look

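Only the 4 tested members and the 3 CXCR3 ligands were looked at for this section. For 6 of them the responses to IFN-β differed between genotypes by a test of the difference itself. Over all genes 17.8% were called for it, 8.68% as higher and 9.09% as lower. Of the neighbouring CXC genes Ppbp, Pf4 and Cxcl15, 0 of 3 were called for it. Differences are given as the Ifnar2 -/- response minus the wild-type response in log2 units. Cxcl1 responded more in Ifnar2 -/- cells by 2.43 (adjusted p = 0.000553), Cxcl2 by 2.09 (adjusted p = 0.00137) and Cxcl3 by 5.60 (adjusted p = 0.0126). The CXCR3 ligands responded less: Cxcl9 by -6.77 (adjusted p = 4.29e-06), Cxcl10 by -10.25 (adjusted p = 4.9e-06) and Cxcl11 by -10.71 (adjusted p = 2.71e-06). Fitted values of Cxcl3, Cxcl9, Cxcl10 and Cxcl11 rest partly on arrays where the probe was not well above background, so their sizes are not bounds. Cxcl3 and Cxcl11 entered the test only through the single group in which they were high, so for them the difference is a description.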

How the results depend on the processing

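The Cxcl1 and Cxcl2 calls in the Ifnar2 -/- response, in the difference of responses and between genotypes after IFN-β held in all 20, 25 and 20 tested settings, with Cxcl1 responses of 2.55 to 3.06. Members called in the wild-type response went from 1 to 0 with no filter on dim probes, with no scaling between arrays and with the slide as a fixed block, and ranged from 0 to 1 when arrays were left out. The Cxcl3 call in the Ifnar2 -/- response held in 10 of 19 settings (adjusted p from 0.00393 to 0.286). Among differences that were never called, signs turned for Cxcl2 between PBS groups with the slide block (0.13), and for Cxcl3 between PBS groups without wild-type PBS array 2 (0.84; range -1.41 to 0.84) and in wild-type cells (0.08 without IFN-β array 3, 1.21 without PBS array 2; range -1.04 to 1.21). The Cxcr2 sign turned between PBS groups (0.24 without Ifnar2 -/- PBS array 2, 1.06 without wild-type PBS array 1; range -1.49 to 1.06) and in wild-type cells (1.00 without PBS array 1; range -1.55 to 1.00). The cause was not tested.

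With the replicate block, members called stayed at 3 in the Ifnar2 -/- response and 1 in the wild-type response, and all genes called in Ifnar2 -/- cells went from 207 to 138; 5 of 12 arrays correlated best with their own number. Over all genes, the Ifnar2 -/- count was 333 with normexp (66.7% higher against 81.6%), 68 with no filter, 118 with the slide block, 13 with only the groups compared (Cxcl1, Cxcl2 and Cxcl3 among them) and 32 to 293 without single arrays. With the slide block the wild-type count was 4427 (7205 otherwise), the difference of responses 1921 (3247), and the genotype counts 31 after PBS (892; 41.9% higher against 58.3%) and 4359 after IFN-β (7027). Testing every probe gave 11086, 4913 and 10771 in wild-type cells, for the difference and between genotypes after IFN-β; array weights gave 1770 after PBS, and single arrays left out moved that count from 437 to 1258. With no scaling the share higher was 30.6% in wild-type cells (44.6% otherwise), 71.2% for the difference (48.8%) and 80.8% between genotypes after IFN-β (55.3%), with all-gene medians of -0.21, 0.31 and 0.46. Signals under the lowest level above background (-5.46 to -5.02 on slide 3, -6.66 to -6.07 elsewhere) limit Cxcl3 and Cxcl5.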
